A study of Mus musculus with 15 samples.

Results

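The 9 genes described here are 4 ligands and 5 receptors of the tumour necrosis factor (TNF) family, taken by symbol from the 23359 genes that the authors' tables list. The ligands were Tnf, Lta, Ltb and Tnfsf9, and the receptors were Tnfrsf1a, Tnfrsf1b, Ltbr, Fas and Cd40. All 9 symbols were found. Their mRNA was measured by RNA-seq in leukemia stem cells (LSC) from mice with a blast crisis form of chronic myeloid leukemia (bcCML), driven by human BCR-ABL and NUP98-HOXA9 expressed together. LSC came from gonadal adipose tissue (AT LSC), peripheral blood (BL LSC), spleen (SPL LSC) and bone marrow (BM LSC) of mice collected 12 days after they were transplanted with leukemia cells. The fifth group held normal counterparts of LSC from normal bone marrow (NBM). Each group had 3 libraries, 15 in all, and every library is labelled female and 3 months old. The strain label of the NBM libraries names the same oncogene pair as the LSC libraries, although their cell type label is normal. No label says if replicates are separate mice or pools, or gives a sorting gate, recipient strain or cell number, so the spread behind the deposited errors may be technical.

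The tables hold 1 pooled value per group, in FPKM (fragments scaled by transcript length and by library size), with a lower and an upper bound set 2 standard deviations from the value. Levels of different genes can be compared on this scale because it is per length. Folds are log2 ratios of the first group named over the second, and a gene is called when the authors tested it and its q (p adjusted over the tests of all 10 comparisons together) is below 0.05. The total estimated count of a group was 1.96e+07 in AT LSC, 1.95e+07 in BL LSC, 8.96e+06 in SPL LSC, 1.65e+07 in BM LSC and 1.95e+07 in NBM, so SPL LSC values rest on the fewest reads. Of 8 stem and progenitor markers (Kit, Cd34, Hoxa9, Meis1, Flt3, Myb, Gata2, Erg), 6 reached 1 FPKM in AT LSC, 6 in BL LSC, 7 in SPL LSC, 8 in BM LSC and 7 in NBM, and none was at 0. Flt3 and Myb were below 1 FPKM in AT LSC and in BL LSC.

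TNF family ligands are trimeric proteins. Most are made on the cell surface, and several of these are also shed. Receptors of the family signal through adaptors of the TRAF and death domain kinds towards NF-kB, MAP kinases or cell death. TNF and lymphotoxin alpha homotrimers bind the receptors encoded by Tnfrsf1a and Tnfrsf1b, lymphotoxin alpha and beta together bind the one encoded by Ltbr, Fas is bound by Fas ligand and Cd40 by CD40 ligand, and the product of Tnfsf9 binds that of Tnfrsf9. In adipose tissue TNF is known mainly as a macrophage product that raises lipolysis and lowers insulin signalling.

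Coordinates are those of mm10. Tnf (chr17:35199391-35201996) is flanked by Lta (chr17:35203165-35205351) and Ltb (chr17:35194507-35196305). By GENCODE M21, whose limits can differ from those in the files, 1157 bases separate Tnf from Lta and 3060 bases separate Tnf from Ltb. Ltbr (chr6:125306571-125313870) and Tnfrsf1a (chr6:125349723-125362483) are 35476 bases apart. Tnfrsf1b (chr4:145212368-145246870), Fas (chr19:34290659-34327770), Cd40 (chr2:165055636-165071654) and Tnfsf9 (chr17:57105325-57107757, limits from GENCODE M21) lie apart from the other members. Promoters of 7 of the 9 members were in the RefSeq table (GRCm38.p6), which has no entry for Tnfsf9 or Cd40. The 250 bases before the start of Tnf (chr17:35202008-35202257, minus strand), Lta (chr17:35205352-35205601, minus strand), Tnfrsf1b (chr4:145246871-145247120, minus strand) and Fas (chr19:34290409-34290658, plus strand) are shown because, besides Tnfsf9, these were the members called higher in an LSC group than in NBM. Capitals mark a match to 1 of the motifs searched.
Tnf: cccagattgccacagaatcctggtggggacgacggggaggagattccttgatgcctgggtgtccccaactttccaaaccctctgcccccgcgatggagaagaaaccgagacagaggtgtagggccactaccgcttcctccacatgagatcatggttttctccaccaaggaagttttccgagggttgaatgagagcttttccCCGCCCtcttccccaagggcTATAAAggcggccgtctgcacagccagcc
Lta: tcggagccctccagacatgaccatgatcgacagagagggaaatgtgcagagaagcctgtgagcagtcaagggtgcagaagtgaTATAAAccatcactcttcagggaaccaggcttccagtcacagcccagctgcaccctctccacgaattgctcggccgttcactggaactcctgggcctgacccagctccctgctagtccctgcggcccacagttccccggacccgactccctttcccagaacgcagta
Tnfrsf1b: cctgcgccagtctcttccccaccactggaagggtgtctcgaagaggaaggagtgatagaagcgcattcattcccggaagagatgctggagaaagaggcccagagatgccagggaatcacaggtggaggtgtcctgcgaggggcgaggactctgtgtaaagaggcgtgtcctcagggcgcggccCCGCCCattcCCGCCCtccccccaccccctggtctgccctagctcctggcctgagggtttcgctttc
Fas: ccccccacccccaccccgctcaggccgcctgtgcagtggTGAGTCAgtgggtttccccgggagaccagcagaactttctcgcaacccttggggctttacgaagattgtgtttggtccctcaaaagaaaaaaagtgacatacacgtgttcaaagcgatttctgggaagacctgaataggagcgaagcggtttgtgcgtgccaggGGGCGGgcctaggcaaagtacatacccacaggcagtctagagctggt
Several motifs were searched on both strands: TATAAA, the AP-1 motif TGANTCA, the GC box GGGCGG and the NF-kB consensus. In the same window, 12.4% of 32851 promoters hold TATAAA, 6.75% hold the AP-1 motif, 32.7% hold the GC box and 3.90% hold the NF-kB consensus. Positions are counted back from the start, with -1 the base before it. Tnf had TATAAA from -29 to -24 and a GC box on the opposite strand from -49 to -44. Lta had TATAAA from -167 to -162. Tnfrsf1b had a pair of GC boxes on the opposite strand, from -67 to -62 and from -57 to -52. Fas had the AP-1 motif, which matches on both strands, from -211 to -205 and a GC box from -47 to -42. Matches to different motifs did not overlap in these windows. Of the promoters not shown, Ltb held the NF-kB consensus, Ltbr held 2 GC boxes and Tnfrsf1a held none of the motifs. A match describes letters only.

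Among the ligands, Tnf and Tnfsf9 were higher in AT LSC than in every other group, Lta was higher in AT LSC and in BM LSC than in NBM, and Ltb was close to undetected. Because the RNA was taken from bulk cell samples, fewer cells of a type and less RNA per cell cannot be told apart. All comparisons of 1 group with the others share that group's libraries, so they are given side by side.

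Tnf, the founding cytokine of the family, was at 7.86 FPKM in AT LSC, 1.00 in BL LSC, 1.68 in SPL LSC, 2.88 in BM LSC and 2.15 in NBM. AT LSC stood above the other 4 groups, and its bounds (3.93 to 11.8 FPKM) overlapped those of BM LSC alone (1.74 to 4.02 FPKM). In the authors' deposited table the log2 fold of Tnf was 1.45 ± 0.46 (SE) for AT LSC against BM LSC, with q = 0.0117. It was 2.97 ± 0.51 for AT LSC against BL LSC (q = 1.99e-07) and 2.22 ± 0.65 against SPL LSC (q = 0.00498) in the authors' deposited table. Against NBM the authors' deposited table gives AT LSC a log2 fold of 1.87 ± 0.49 and q = 0.00141. The 3 other LSC groups were not called against NBM for Tnf. BL LSC had the lowest level, and its log2 fold against BM LSC was -1.52 ± 0.45 with q = 0.00664 in the authors' deposited table. That call is lost when folds are centred on the median of all tested genes (recomputed q = 0.0582, from the deposited folds and errors). Below AT LSC, no neighbouring pair in the order BM LSC, NBM, SPL LSC, BL LSC differed by the authors' test.

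Lta, which encodes lymphotoxin alpha, was at 1.16 FPKM in AT LSC, 0.400 in BL LSC, 0.534 in SPL LSC, 1.17 in BM LSC and 0.189 in NBM. AT LSC and BM LSC were level and highest, and NBM was lowest. AT LSC exceeded NBM by a log2 fold of 2.62 ± 0.74 (SE, q = 0.00357) and BM LSC exceeded NBM by 2.63 ± 0.59 (q = 0.000158) in the authors' deposited table. The bounds of BM LSC (0.622 to 1.71 FPKM) lay above those of NBM (0.0613 to 0.316 FPKM), whereas the wide bounds of AT LSC (0.273 to 2.04 FPKM) overlapped those of NBM. BL LSC was lower than BM LSC by the authors' deposited table, with a log2 fold of -1.54 ± 0.55 and q = 0.0286, a call that centring on the median gene removes (recomputed q = 0.132). Unlike its neighbour Tnf, Lta was not called in AT LSC against BM LSC, where its log2 fold was -0.01 ± 0.65 (q = 0.996, the authors' deposited table), and centring turns the sign to give 0.46. The ratio of the Tnf level to the Lta level was 6.80 in AT LSC, 2.51 in BL LSC, 3.15 in SPL LSC, 2.47 in BM LSC and 11.4 in NBM.

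Ltb, which encodes the membrane-bound partner of lymphotoxin alpha, was at 0.0509 FPKM in AT LSC, 0.0251 in BL LSC, 0.0741 in SPL LSC, 0.0636 in BM LSC and 0.106 in NBM. These levels rest on 4.18 estimated counts in AT LSC, 1.70 in BL LSC, 1.98 in SPL LSC, 3.62 in BM LSC and 7.16 in NBM. The authors' tables mark Ltb as not tested in all 10 comparisons, so no order of its levels is read here. The other 8 members were tested in every comparison.

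Tnfsf9, which encodes the 4-1BB ligand, had the highest level of any member in AT LSC, at 18.5 FPKM, against 4.84 in BL LSC, 4.03 in SPL LSC, 4.84 in BM LSC and 3.90 in NBM. The bounds of AT LSC (7.53 to 29.6 FPKM) lay above those of the 4 other groups, which overlapped one another. AT LSC was higher than BM LSC by a log2 fold of 1.94 ± 0.51 (SE, q = 0.00180) and higher than BL LSC by 1.94 ± 0.55 (q = 0.00365) in the authors' deposited table. The log2 fold of AT LSC was 2.20 ± 0.60 against SPL LSC (q = 0.00242) and 2.25 ± 0.53 against NBM (q = 0.000332) in the authors' deposited table. None of the comparisons among the 4 other groups was called for Tnfsf9. Its 5′ end overlaps the lincRNA Gm11110, which is transcribed from the opposite strand, with 192 bases exonic in both by GENCODE M21. Whether counting used strand is not given in the sources used here, so reads there cannot be assigned with certainty. Gm11110 itself was at 0.356 FPKM in AT LSC, 1.25 in BL LSC, 1.32 in SPL LSC, 1.87 in BM LSC and 1.45 in NBM and was called in no comparison.

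**Figure D1:**
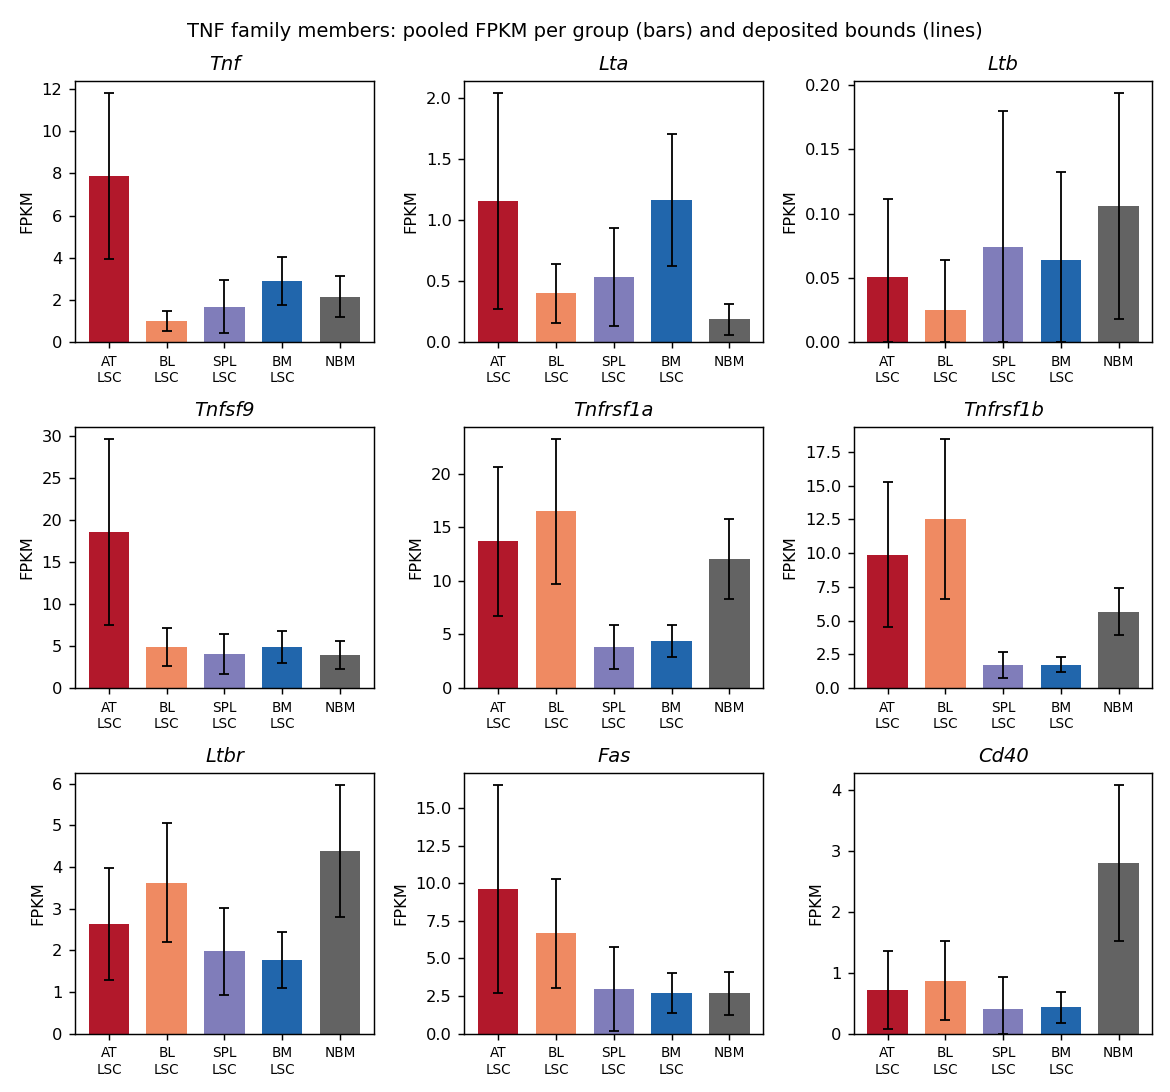
Level of each of the 9 members in FPKM (vertical axes, linear, each with its own scale) in AT LSC, BL LSC, SPL LSC, BM LSC and NBM. Bars are the authors' pooled values of 3 libraries and the lines are the deposited bounds, 2 standard deviations either way. The AT LSC bar is the tallest for Tnf and Tnfsf9, the AT LSC and BL LSC bars are the tallest for both TNF receptors, and the NBM bar is the tallest for Cd40.

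The receptors followed another order. Both TNF receptors were high in AT LSC, BL LSC and NBM and low in SPL LSC and BM LSC, Fas was higher in AT LSC than in BM LSC and NBM, Ltbr was lower in BM LSC than in NBM, and Cd40 was lower than in NBM in all 4 LSC groups.

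Tnfrsf1a encodes the death domain receptor of TNF, present on most cells. Its level was 13.7 FPKM in AT LSC, 16.5 in BL LSC, 3.84 in SPL LSC, 4.40 in BM LSC and 12.0 in NBM. The 3 high groups did not overlap the 2 low groups in their bounds, with lower bounds of 6.73 FPKM in AT LSC, 9.74 in BL LSC and 8.33 in NBM against upper bounds of 5.88 in SPL LSC and 5.88 in BM LSC. In the authors' deposited table its log2 fold was 1.64 ± 0.44 (SE, q = 0.00213) for AT LSC against BM LSC and 1.84 ± 0.53 (q = 0.00494) for AT LSC against SPL LSC. BL LSC exceeded BM LSC by 1.91 ± 0.38 (q = 1.64e-05) and SPL LSC by 2.10 ± 0.49 (q = 0.000240) on the log2 scale of the authors' deposited table. Against NBM the log2 fold was -1.65 ± 0.45 (q = 0.00221) in SPL LSC and -1.45 ± 0.33 (q = 0.000181) in BM LSC in the authors' deposited table. AT LSC against BL LSC had a log2 fold of -0.27 ± 0.47 and was not called (q = 0.781, the authors' deposited table).

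Tnfrsf1b encodes the TNF receptor without a death domain, found mainly on blood and endothelial cells. It was at 9.88 FPKM in AT LSC, 12.5 in BL LSC, 1.71 in SPL LSC, 1.73 in BM LSC and 5.67 in NBM. AT LSC, BL LSC and NBM were again high and SPL LSC and BM LSC low, with no overlap of their bounds. The largest folds were BL LSC against BM LSC, with a log2 fold of 2.86 ± 0.42 (SE, q = 6.58e-10), and BL LSC against SPL LSC, with 2.87 ± 0.52 (q = 1.49e-06), in the authors' deposited table. AT LSC exceeded BM LSC by 2.52 ± 0.46 (q = 1.85e-06) and SPL LSC by 2.53 ± 0.56 (q = 0.000117) on the log2 scale of the authors' deposited table. Against NBM, the authors' deposited table has BL LSC higher (1.15 ± 0.41, q = 0.0268), SPL LSC lower (-1.73 ± 0.46, q = 0.00168) and BM LSC lower (-1.71 ± 0.33, q = 5.21e-06). AT LSC was not called against NBM (0.80 ± 0.45, q = 0.216, the authors' deposited table) but passes after centring on the median gene (recomputed q = 0.0329). The ratio of the Tnfrsf1b level to the Tnfrsf1a level was 0.721 in AT LSC, 0.760 in BL LSC, 0.447 in SPL LSC, 0.393 in BM LSC and 0.471 in NBM. These ratios have no test, because the tables hold 1 value per group.

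Ltbr, the receptor of the lymphotoxin heterotrimer, spanned a narrower range, with 2.63 FPKM in AT LSC, 3.62 in BL LSC, 1.98 in SPL LSC, 1.77 in BM LSC and 4.39 in NBM. NBM and BL LSC were highest. BM LSC was lower than NBM by a log2 fold of -1.31 ± 0.38 (SE, q = 0.00486) and BL LSC was higher than BM LSC by 1.03 ± 0.40 (q = 0.0452) in the authors' deposited table. No other comparison was called for Ltbr. The authors' deposited table puts SPL LSC against NBM just outside (-1.15 ± 0.46, q = 0.0579).

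Fas, the death domain receptor of Fas ligand, was at 9.61 FPKM in AT LSC, 6.68 in BL LSC, 2.96 in SPL LSC, 2.71 in BM LSC and 2.68 in NBM. AT LSC was highest and BL LSC next, and the bounds of all groups overlapped, those of SPL LSC running from 0.189 to 5.74 FPKM. AT LSC was higher than BM LSC by a log2 fold of 1.83 ± 0.63 (SE, q = 0.0221) and higher than NBM by 1.84 ± 0.64 (q = 0.0243) in the authors' deposited table. AT LSC against SPL LSC, with a log2 fold of 1.70 ± 0.85, was not called (q = 0.151, the authors' deposited table), nor was AT LSC against BL LSC at 0.53 ± 0.65 (q = 0.662). BL LSC was not called against BM LSC (1.30 ± 0.53, q = 0.0614) or NBM (1.32 ± 0.55, q = 0.0677) in the authors' deposited table. The ligand gene Fasl was low in LSC, at 0.0317 FPKM in AT LSC, 0.160 in BL LSC, 0.411 in SPL LSC and 0.0634 in BM LSC, against 2.02 FPKM in NBM, and was called lower than NBM in all 4 by the authors' deposited table.

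Cd40, which on B cells and myeloid antigen-presenting cells receives the signal of CD40 ligand, was at 0.725 FPKM in AT LSC, 0.869 in BL LSC, 0.408 in SPL LSC, 0.434 in BM LSC and 2.80 in NBM. All 4 LSC groups were below NBM. In the authors' deposited table the log2 fold against NBM was -1.95 ± 0.72 (SE, q = 0.0356) in AT LSC and -1.69 ± 0.63 (q = 0.0391) in BL LSC. It was -2.78 ± 0.97 (q = 0.0245) in SPL LSC and -2.69 ± 0.54 (q = 1.32e-05) in BM LSC in the authors' deposited table. After centring on the median gene, AT LSC (recomputed q = 0.148) and BL LSC (recomputed q = 0.143) no longer pass. Among the LSC groups no comparison was called for Cd40. B cell markers moved the same way: 7 of them summed to 1.95 FPKM in AT LSC, 4.87 in BL LSC, 15.4 in SPL LSC, 3.29 in BM LSC and 23.3 in NBM. The authors' deposited table calls 5 of 6 tested B cell markers lower than NBM in AT LSC, 3 of 6 in BL LSC, 1 of 6 in SPL LSC and 5 of 6 in BM LSC. Of all tested genes, 15.5%, 22.9%, 6.19% and 7.85% were called lower in these comparisons, in that order. None of the 7 was at 0 in any group. Their part in the Cd40 result was not tested.

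Counted over the 8 tested members, AT LSC against BM LSC had 5 called higher and 0 lower. Of all genes tested there, 7.24% were called higher and 15.5% lower. The median log2 fold was 1.54 for the members and -0.48 for all tested genes. AT LSC against SPL LSC had 4 higher and 0 lower, beside 7.20% and 17.9% of all genes, and AT LSC against BL LSC had 2 higher and 0 lower, beside 4.01% and 2.51%. The members' median log2 fold was 1.77 against SPL LSC, beside -0.52 for all tested genes, and 0.13 against BL LSC, beside -0.11. The members called higher in AT LSC were Tnf, Tnfsf9, Tnfrsf1a, Tnfrsf1b and Fas against BM LSC, the first 4 of these against SPL LSC, and Tnf and Tnfsf9 against BL LSC.

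BL LSC against BM LSC had 3 receptors higher (Tnfrsf1a, Tnfrsf1b, Ltbr) and 2 ligands lower (Tnf, Lta), where 10.5% of all tested genes were called higher and 22.8% lower. After centring on the median gene the split was 4 higher and 0 lower, with Fas added. BL LSC against SPL LSC had 2 higher and 0 lower (all genes 10.2% and 23.1%), and 3 higher after centring, with Ltbr added. SPL LSC against BM LSC had 0 of 8 called in either direction (all genes 1.19% and 1.50%). At an unadjusted p below 0.05 the authors' deposited table, from Cuffdiff, also has 0 of these 8, and the median standard error over the members was 0.56 on the log2 scale.

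Against NBM, AT LSC had 4 members higher (Tnf, Lta, Tnfsf9, Fas) and 1 lower (Cd40), where 7.94% of all tested genes were called higher and 15.5% lower. Centring made this 5 higher and 0 lower, with Tnfrsf1b added and Cd40 lost. BL LSC had 1 higher and 1 lower against NBM (all genes 11.5% and 22.9%), and 2 higher (Tnfrsf1b, Fas) and 0 lower after centring. SPL LSC had 0 higher and 3 lower (Tnfrsf1a, Tnfrsf1b, Cd40), where 6.37% of all genes were called higher and 6.19% lower, and 4 lower after centring, with Ltbr added. BM LSC had 1 higher (Lta) and 4 lower (Tnfrsf1a, Tnfrsf1b, Ltbr, Cd40), where 8.17% were called higher and 7.85% lower. In all, 33 of the 80 tests on members were called, and these tests share libraries.

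The whole table was off centre in several comparisons. The median log2 fold of all tested genes was -0.48 for AT LSC against BM LSC, -0.52 against SPL LSC, -0.11 against BL LSC and -0.46 against NBM. It was -0.37 for BL LSC against BM LSC, -0.40 against SPL LSC and -0.36 against NBM. It was 0.12 for SPL LSC against BM LSC and 0.11 for SPL LSC against NBM, and -0.03 for BM LSC against NBM. Relative to the median gene, the AT LSC folds against BM LSC come to 1.92 for Tnf, 2.41 for Tnfsf9, 2.12 for Tnfrsf1a, 2.99 for Tnfrsf1b and 2.30 for Fas on the log2 scale.

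**Figure D2:**
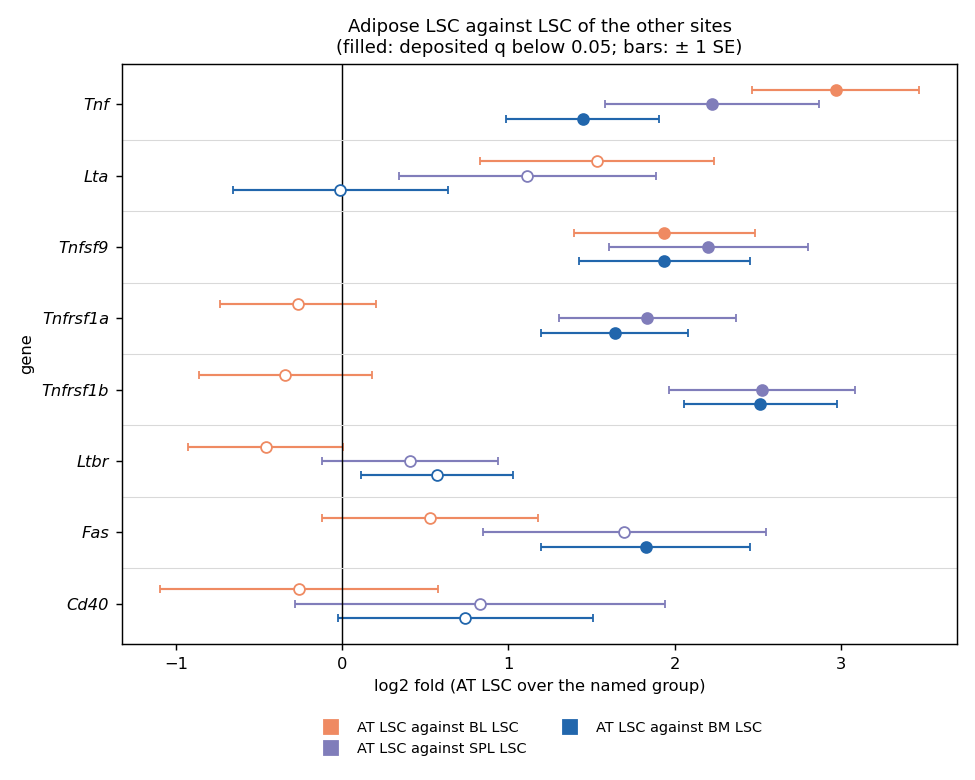
Log2 folds of the 8 tested members (one row a gene) in AT LSC against BL LSC, SPL LSC and BM LSC, on a linear log2 axis. Points are the deposited folds, filled where called at q below 0.05 and open where not, and lines are 1 SE either way as the deposited fold and test statistic imply. Tnf and Tnfsf9 are filled in all 3 comparisons, while both TNF receptors sit near 0 against BL LSC and between 1.64 and 2.53 against the SPL LSC and BM LSC groups.

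**Figure D3:**
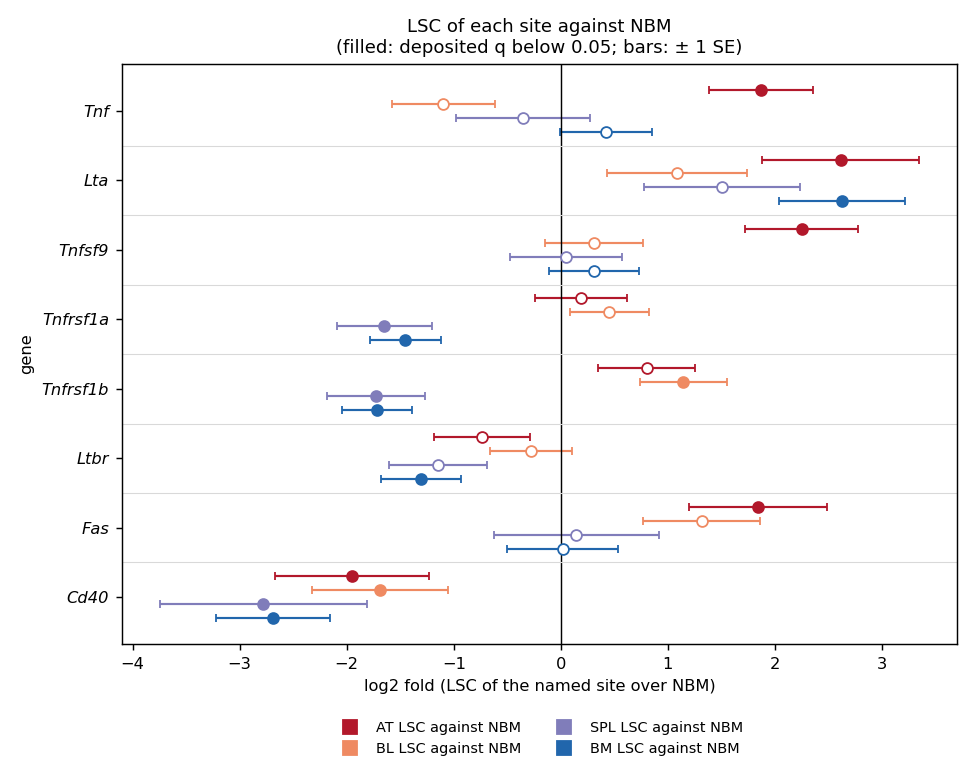
Log2 folds of the 8 tested members (one row a gene) in AT LSC, BL LSC, SPL LSC and BM LSC, each against NBM, on a linear log2 axis. Symbols and lines are drawn as filled (called), open (not called) and 1 SE either way. Cd40 is filled to the left of 0 for all 4 LSC groups, and Tnf and Tnfsf9 are filled to the right of 0 for AT LSC alone.

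In the wider family, 10 of 18 ligand genes and 18 of 27 receptor genes reached 1 FPKM in at least 1 group. Without the members, the AT LSC against BM LSC comparison had 1 of 8 tested ligands higher and 3 lower, and 0 of 17 tested receptors higher and 2 lower, where 7.24% of all tested genes were called higher and 15.5% lower. After centring on the median gene the ligand counts were the same, and the receptors had 4 higher and 1 lower. The median log2 fold was -0.49 for these ligands and -0.63 for these receptors, beside -0.48 for all tested genes. Against NBM, AT LSC had 0 of 9 ligands higher and 2 lower, and 2 of 18 receptors higher and 5 lower (all genes 7.94% and 15.5%). Centring made this 2 ligands higher and 2 lower, and 4 receptors higher and 4 lower. BM LSC had 4 of 8 ligands higher and 2 lower than NBM, and 5 of 19 receptors higher and 6 lower (all genes 8.17% and 7.85%), with the same counts after centring.

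Tnfrsf9, which encodes the receptor of the Tnfsf9 product, was highest in BM LSC, at 8.43 FPKM in AT LSC, 5.37 in BL LSC, 5.76 in SPL LSC, 22.0 in BM LSC and 2.68 in NBM. The highest pooled values of ligand and receptor were thus in different groups, although Tnfrsf9 was not called between AT LSC and BM LSC. In the authors' deposited table its log2 fold was 3.04 ± 0.41 for BM LSC against NBM (q = 1.21e-11) and 1.65 ± 0.59 for AT LSC against NBM (q = 0.0295). It was lower in BL LSC (-2.03 ± 0.43) and in SPL LSC (-1.93 ± 0.44) than in BM LSC by the authors' deposited table, and AT LSC against BM LSC was not called (-1.38 ± 0.56, q = 0.0579). After centring on the median gene, that last log2 fold was -0.91 (recomputed q = 0.297).

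Other ligands followed other orders than Tnf. Tnfsf4, the OX40 ligand gene, was at 0.554 FPKM in AT LSC, 1.04 in BL LSC, 11.0 in SPL LSC, 4.41 in BM LSC and 1.06 in NBM, and was called lower in AT LSC than in BM LSC (log2 fold -2.99 ± 0.62) in the authors' deposited table. Tnfsf10, the TRAIL gene, was likewise lower in AT LSC, at 0.119 FPKM against 1.40 FPKM in BM LSC (log2 fold -3.56 ± 0.55, the authors' deposited table). Tnfsf13, the APRIL gene, followed the order of the TNF receptors, with 2.59 FPKM in AT LSC, 3.01 in BL LSC, 0.401 in SPL LSC, 0.393 in BM LSC and 1.87 in NBM. It was called higher in AT LSC than in BM LSC (2.72 ± 0.57) and lower in BM LSC than in NBM (-2.25 ± 0.50) in the authors' deposited table.

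Among other receptors, Cd27, a costimulatory receptor of lymphocytes, was at 0.791 FPKM in AT LSC, 1.64 in BL LSC, 2.63 in SPL LSC and 3.15 in BM LSC, against 17.3 in NBM. The authors' deposited table calls it lower than NBM in all 4 LSC groups. The 11 T and NK cell markers summed to 14.3 FPKM in AT LSC, 16.0 in BL LSC, 21.7 in SPL LSC, 16.0 in BM LSC and 77.6 in NBM. Of these 11, 9 were called lower than NBM in AT LSC, 9 in BL LSC, 9 in SPL LSC and 10 in BM LSC by the authors' deposited table, and none was at 0. Of all tested genes, 15.5%, 22.9%, 6.19% and 7.85% were called lower than NBM in these groups, in that order. The part of T and NK cell markers in the Cd27 and Fasl results was not tested. Tnfrsf11b, which encodes the decoy receptor osteoprotegerin, stood at 2.05 FPKM in AT LSC, 1.17 in BL LSC, 0.366 in SPL LSC and 3.17 in BM LSC against 0.0375 in NBM. Tnfrsf26 was at 16.4 FPKM in AT LSC and 28.3 in BL LSC, against 5.65 in SPL LSC and 7.95 in BM LSC, and was called higher in BL LSC than in BM LSC (log2 fold 1.83 ± 0.38, the authors' deposited table).

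**Figure D4:**
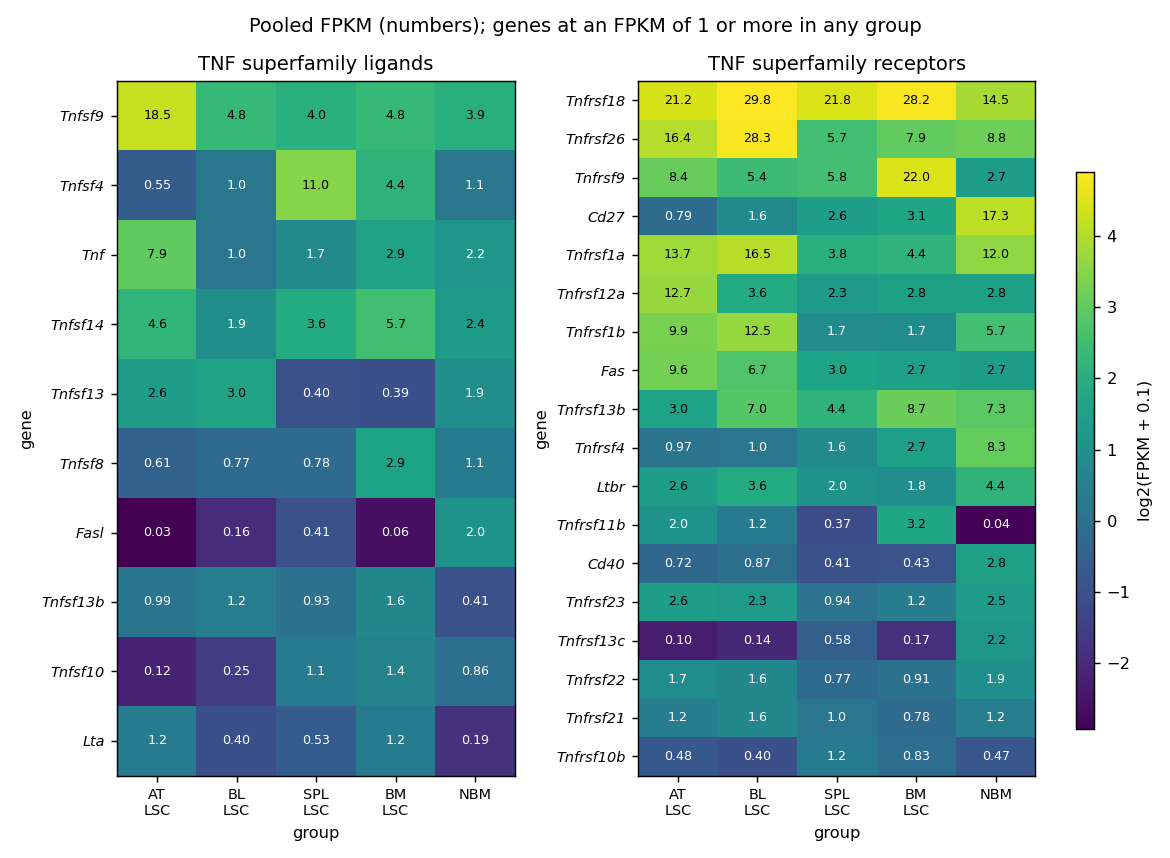
Level of the TNF family ligands and receptors that reach 1 FPKM in at least 1 group, as colour on a log2(FPKM + 0.1) scale with the FPKM printed in each cell. Columns are AT LSC, BL LSC, SPL LSC, BM LSC and NBM, and rows are 10 ligands and 18 receptors. Tnfsf9 at 18.5 FPKM in AT LSC, Tnfsf4 at 11.0 in SPL LSC and Tnfrsf9 at 22.0 in BM LSC stand out in their rows.

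Of 27 adaptors and death signalling genes downstream of the receptors, all tested, 1 was higher and 2 were lower in AT LSC than in BM LSC, with a median log2 fold of 0.01 beside -0.48 for all tested genes. Of all genes tested there, 7.24% were called higher and 15.5% lower. After centring on the median gene 3 of the 27 were higher and 0 lower. Traf1, an adaptor that is itself a target of NF-kB, was at 15.3 FPKM in AT LSC against 4.37 FPKM in BM LSC (log2 fold 1.80 ± 0.45, q = 0.000790, the authors' deposited table). The 2 lower genes were Tab1, which encodes a TAK1 partner, at 1.96 FPKM in AT LSC against 5.66 in BM LSC, and Mlkl, the effector of necroptosis, at 5.54 FPKM in AT LSC against 13.0 in BM LSC. Traf1 was also called higher in BL LSC than in BM LSC (log2 fold 1.52 ± 0.37, the authors' deposited table). Against SPL LSC, AT LSC had 3 of the 27 higher and 1 lower, beside 7.20% and 17.9% of all tested genes. The higher ones included Tradd, which links the Tnfrsf1a product to TRAF2 (2.19 ± 0.75), and Tnfaip3, which encodes the inhibitor A20 (1.94 ± 0.62), in the authors' deposited table. BM LSC against NBM had 0 of 27 called at q below 0.05 in either direction, with 3 at an unadjusted p below 0.05, in the authors' deposited table. Of all genes tested in that comparison, 8.17% were called higher and 7.85% lower.

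Of 11 NF-kB subunits, inhibitors and kinases, 6 were higher and 0 lower in AT LSC than in BM LSC, 5 and 0 against SPL LSC, 1 and 0 against BL LSC and 3 and 0 against NBM. Of all tested genes, 7.24%, 7.20%, 4.01% and 7.94% were called higher in these comparisons, in that order. The shares called lower were 15.5%, 17.9%, 2.51% and 15.5%. The median log2 fold of the 11 genes in AT LSC was 1.47 against BM LSC (-0.48 for all tested genes), 1.03 against SPL LSC (-0.52), 0.38 against BL LSC (-0.11) and 0.23 against NBM (-0.46). Rel, the subunit called in all 4, was at 3.61 FPKM in AT LSC, 1.31 in BL LSC, 0.676 in SPL LSC, 0.588 in BM LSC and 1.41 in NBM. Of 12 genes for TNF shedding and TNF mRNA decay, 3 were higher and 0 lower in AT LSC than in BM LSC, 2 and 0 against SPL LSC, 2 and 0 against BL LSC and 4 and 0 against NBM. These counts stand beside the same shares of all tested genes. The median log2 fold of the 12 genes was 0.51 against BM LSC, 0.65 against SPL LSC, 0.17 against BL LSC and 0.08 against NBM. Zc3h12a, which encodes the ribonuclease Regnase-1, was at 1.12 FPKM in AT LSC, 0.199 in BL LSC, 0.199 in SPL LSC, 0.178 in BM LSC and 0.194 in NBM, and was called higher in AT LSC in all 4 comparisons of the authors' deposited table. Rhbdf2, which encodes the iRhom2 partner of the TNF sheddase ADAM17, was higher in AT LSC than in BM LSC (1.43 ± 0.44), SPL LSC (2.21 ± 0.55) and NBM (2.10 ± 0.47) on the log2 scale of the authors' deposited table.

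Markers of other myeloid cells differed between the groups, in part in another order than the members. The 10 macrophage markers found summed to 202 FPKM in AT LSC, 303 in BL LSC, 57.3 in SPL LSC, 80.3 in BM LSC and 101 in NBM. Of the 9 tested, 5 were higher in AT LSC than in BM LSC and 6 were higher in BL LSC than in BM LSC in the authors' deposited table, and none was lower in either. Of all tested genes, 7.24% were called higher and 15.5% lower in AT LSC against BM LSC, and 10.5% and 22.8% in BL LSC against BM LSC. In AT LSC against BL LSC, 1 of the 9 was higher and 1 lower (all genes 4.01% and 2.51%), with a median log2 fold of -0.48. The higher marker was Marco, at 48.5 FPKM in AT LSC, 6.72 in BL LSC, 1.10 in SPL LSC, 0.251 in BM LSC and 0.0817 in NBM. Marco thus had its highest level in AT LSC, as Tnf and Tnfsf9 did. In AT LSC against NBM, 2 of the 9 markers were higher and 3 lower (all genes 7.94% and 15.5%). The markers did not share 1 order: Emr1, at 46.0 FPKM in AT LSC, 122 in BL LSC, 16.9 in SPL LSC and 40.2 in BM LSC against 4.84 in NBM, was lowest in NBM, while Mrc1 was highest there, at 0.321 FPKM in AT LSC against 2.84 in NBM. Vsig4 was at or below 3 estimated counts in all groups and at 0 in SPL LSC. The 10 neutrophil markers summed to 2173 FPKM in AT LSC, 923 in BL LSC, 422 in SPL LSC, 537 in BM LSC and 1046 in NBM, with 4 of 10 higher in AT LSC than in BM LSC and 7 of 10 higher in BL LSC than in BM LSC. Most of that sum was S100a8 (1331 FPKM in AT LSC) and S100a9 (707 FPKM in AT LSC), and the median marker was at 14.9 FPKM in AT LSC against 28.1 in BL LSC. In AT LSC against BL LSC 3 of the 10 were higher and 2 lower, with a median log2 fold of -0.63. The neutrophil counts stand beside the same shares of all tested genes as the macrophage counts of those comparisons. The stem and progenitor markers summed to 22.0 FPKM in AT LSC, 22.9 in BL LSC, 43.8 in SPL LSC, 61.5 in BM LSC and 69.5 in NBM. The part of these cell types in the Tnf, Tnfsf9, Fas and TNF receptor results was not tested.

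Among tissue markers, the stromal and adipocyte sums were highest in AT LSC. The 9 stromal markers summed to 34.9 FPKM in AT LSC, 8.52 in BL LSC, 5.19 in SPL LSC, 7.42 in BM LSC and 3.37 in NBM, with 6 of 8 tested higher in AT LSC than in BM LSC and Lum at 0 in SPL LSC. Outside AT LSC most of the sum was Thy1 (7.41 FPKM in BL LSC, 2.84 in SPL LSC, 4.55 in BM LSC) or Pdgfrb (2.09 in NBM). Dcn was most of the AT LSC sum, at 20.96 FPKM on 3233 estimated counts, and was at or below 0.0282 FPKM elsewhere. Lum was at 2.07 FPKM in AT LSC and Sparc at 4.55, against at most 0.0202 and 0.486 elsewhere. Col1a1, Col3a1 and Pdgfra were also highest in AT LSC, whereas Thy1, Col1a2 and Pdgfrb were highest in other groups. The 6 adipocyte markers summed to 52.3 FPKM in AT LSC, 36.5 in BL LSC, 5.05 in SPL LSC, 4.33 in BM LSC and 4.46 in NBM. Most of that sum was Fabp4, at 46.2 FPKM in AT LSC and 31.8 in BL LSC, and Lep and Plin1 were at or below 3 estimated counts in AT LSC. Adipoq was close to undetected in AT LSC too, at 0.0304 FPKM on 3.03 estimated counts, and was at 0 in BL LSC and in SPL LSC. Plin1 was at 0 in SPL LSC and NBM. Cidec was at 0.263 FPKM in AT LSC on 44.5 estimated counts, with 1.33 counts in BL LSC, 0.369 in SPL LSC, 1.34 in BM LSC and 1.67 in NBM. Of 3 adipocyte markers tested, 3 were higher and 0 lower in AT LSC than in BM LSC, beside 7.24% and 15.5% of all tested genes. Against NBM the counts were also 3 and 0 (all genes 7.94% and 15.5%). Against BL LSC they were 1 and 0 (all genes 4.01% and 2.51%). The 6 endothelial markers summed to 14.4 FPKM in AT LSC, 24.7 in BL LSC, 9.98 in SPL LSC, 11.6 in BM LSC and 13.9 in NBM, mostly Pecam1, with none at 0. Of 5 tested, 2 were higher and 0 lower in AT LSC than in BM LSC (all genes 7.24% and 15.5%). Cdh5 rested on 102 estimated counts in AT LSC, 0.325 in BL LSC, 0.686 in SPL LSC, 0.675 in BM LSC and 105 in NBM. The part of these markers in the AT LSC results was not tested.

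Genes with the most similar level pattern were ranked by the root mean square difference of log2(FPKM + 0.1), centred on each gene's mean over the 5 pooled groups, among genes with at least 5 FPKM in some group. The nearest to Tnf were Fcnb (0.33), Chac1 (0.37), Ccl2 (0.42), Camp (0.44) and Tgif1 (0.44). Ccl2 was at 8.59 FPKM in AT LSC, 1.66 in BL LSC, 1.11 in SPL LSC, 3.75 in BM LSC and 2.90 in NBM. The nearest to Tnfrsf1b were closer, with Sirpa at 0.042, Cybb at 0.16, Fn1 at 0.17, Cd300c at 0.17 and AF251705 at 0.17. Sirpa was at 7.91 FPKM in AT LSC, 10.2 in BL LSC, 1.31 in SPL LSC, 1.36 in BM LSC and 4.81 in NBM, and so followed Tnfrsf1b group by group. For Ltb the nearest were Tbc1d15, Eif6, Tank, Dus3l and Slc39a11 (0.055 to 0.081), which are nearly level across the groups, and the few Ltb counts make that likeness uninformative. With 5 pooled points these distances are descriptions.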

How the data were processed

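Total RNA of 15 libraries was extracted with a column kit and made into low-input libraries with SMARTer chemistry and Nextera XT, per the labels' protocols. Trimmomatic 0.32, Cufflinks 2.0.2, Cuffdiff and the mm10 build are named per the submitters' processing notes, while aligner and annotation versions are not given in the sources used. The authors deposited FPKM with bounds and estimated counts for each pooled group of 3 libraries, and for each of 10 pairs of groups a log2 fold with its test statistic, p-value and q-value. Values of single libraries were not used (0 such columns), so no test of replicates was computed and each p or q is the authors' own unless said otherwise.

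Folds were turned to a common direction. The standard error was taken as the fold divided by the test statistic. The deposited q matched a Benjamini-Hochberg adjustment over all 10 comparisons together (largest difference 1.70e-06). Called means tested with q below 0.05. Folds were recomputed from the same errors after centring on the median of all tested genes, at equal total estimated counts and at equal upper quartiles. The calling step was run on simulated folds. In that run a known constant was added and the same constant removed, so it could not test how a shift is estimated. Further alternatives were another p adjustment, q below 0.01, a minimum of 1 FPKM, leaving out merged entries, and pseudocounts of 1 and 0.1. The tables merge 105 entries that hold several genes.

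The members and the 13 gene lists (162 of 163 symbols found) were chosen with earlier results of these data known. Genes outside the members are named by a rule, the 4 called genes with the smallest q in each list and comparison. Exceptions, chosen after their values were seen, are Cd27 in AT LSC against NBM, marker genes named for their level, and values of named genes in groups where they were not among those 4. Marker lists are used as levels and counts. Promoters came from RefSeq and gene limits from GENCODE M21. Python 3.11.15, pandas 2.3.3, numpy 2.4.6, scipy 1.17.1 and matplotlib 3.10.9 were used.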

Additional observations from a re-analysis of the deposited data

How the results depend on the processing

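The number of called members kept within 1.5 times its deposited value in all 10 comparisons when folds were centred on the median gene, set to equal totals or set to equal upper quartiles, when p was adjusted within each comparison, when genes below 1 FPKM were left out and when merged entries were left out. At q below 0.01 it fell to 3 for AT LSC against BM LSC, 3 for BL LSC against BM LSC, 3 for AT LSC against NBM and 0 for BL LSC against NBM, because fewer genes pass a stricter threshold. Of the 33 called member folds, 29 stayed called after centring, 29 at equal upper quartiles, 32 at equal totals and 24 at q below 0.01, and 13 moved by more than 1 SE on log2(FPKM + 1), which shrinks low genes. The calls lost to scaling were Tnf and Lta in BL LSC against BM LSC (recomputed q = 0.0604 and 0.136 at equal upper quartiles) and Cd40 in AT LSC against NBM (0.0834 at equal totals, 0.169 at equal upper quartiles) and in BL LSC against NBM (0.140). These settings differ from the deposited values only in a constant added to every fold of a comparison.

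Folds that changed sign were all uncalled. After centring, Lta in AT LSC against BM LSC became 0.46, Tnfsf9 in BL LSC against BM LSC 0.37, Ltbr in BL LSC against NBM 0.089 and Tnfsf9 in SPL LSC against NBM -0.067. At equal totals the same Lta fold was 0.30, Tnfsf9 in BL LSC against BM LSC 0.070 and in SPL LSC against NBM -0.23, Ltbr and Fas in SPL LSC against BM LSC -0.060 and -0.090, Fas in SPL LSC against NBM -0.13 and Fas in BM LSC against NBM -0.037. At equal upper quartiles Lta in AT LSC against BM LSC was 0.52 and in BL LSC against SPL LSC 0.098, Tnfsf9 in BL LSC against BM LSC 0.37 and in SPL LSC against NBM -0.13, Ltbr in BL LSC against NBM 0.081 and Fas in SPL LSC against NBM -0.027.

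No paired analysis was possible because the columns are pooled per group and carry no replicate numbers, and for the same reason leaving out each replicate in turn was not run. The smallest called change of any tested gene was 0.72 to 1.26 on the log2 scale, depending on the comparison, so smaller differences in the members were not detectable here. Larger differences could also go uncalled where the error was wide, as for Fas in AT LSC against SPL LSC (1.70 ± 0.85).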

Other observations

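Tnfrsf12a, which encodes the TWEAK receptor, is outside the naming rule and was chosen after its values were seen. It was at 12.7 FPKM in AT LSC, 3.64 in BL LSC, 2.32 in SPL LSC, 2.79 in BM LSC and 2.79 in NBM, highest in AT LSC. Its error was wide: the log2 fold of AT LSC against BM LSC was 2.19 ± 0.86 (SE) and was not called (q = 0.0508, the authors' deposited table). After centring on the median gene it passes (recomputed q = 0.0147). Against NBM the log2 fold of AT LSC was 2.19 ± 0.95 (q = 0.0863, the authors' deposited table).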
